A study of Homo sapiens with 6 samples.

Results

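The enzymes that attach ubiquitin and related modifiers to proteins were examined at the mRNA level after stable knockdown of YB1 in 786-O cells. The members were the genes that the deposited table assigns to the KEGG pathway of ubiquitin mediated proteolysis, without genes that also carry the excision repair or homologous recombination pathways and without a few genes left out by name. Of 136 genes in that pathway, 12 were left out in this way, 7 of them through the repair pathways and 5 by name only, so that 124 of the 20030 genes in the table remained. The choice used the annotation column and no measured value. Of the 124 members, 109 had a mean of at least 1 FPKM over all libraries and were tested, and 15 did not reach it. FPKM scale the fragments of a gene to its transcript length and to the fragments mapped in its library, so levels of different genes can be set side by side.

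786-O is an established cell line from a human clear cell renal cell carcinoma (ccRCC). The series holds 3 libraries of cells carrying an shRNA against YB1 (shYB1) and 3 of control cells carrying a scrambled shRNA (vector), both introduced with lentivirus, at passages 16 to 18. Both groups had passed puromycin selection, and neither carried any other stated change or received a drug. The text of the series speaks of several independent shRNAs, whereas the labels give a single shYB1 group, and nothing states whether the libraries of a group came from separately transduced cells, so the p-values measure the spread between these libraries, which may be technical.

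Ubiquitin is passed along a chain of enzymes. An E1 activates it with ATP, an E2 carries it as a thioester, and an E3 ligase selects the substrate. HECT ligases take the ubiquitin over before passing it on, whereas RING and U-box ligases bring the loaded E2 to the substrate. Cullin ligases are RING ligases built from exchangeable substrate receptors, and the anaphase-promoting complex (APC/C) is the large relative that drives the exit from mitosis. SUMO, NEDD8 and ISG15 travel through E1 and E2 enzymes of their own. The study asked whether YB1 affects the turnover of the receptor EphA2 through the proteasome, which depends on this cascade, and the comparison below addresses the mRNA of its enzymes only.

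YB1, the product of YBX1, is named for the Y-box, a CCAAT element in promoters. Because the targeted protein is a Y-box binding protein, the promoters of 5 of the members with large or stable differences are shown here as RefSeq gives them for GRCh38.p14, each 300 bases long and reaching 50 bases past the transcription start. SOCS1 and SOCS3 are the members with the largest falls, UBE2N, UBE2S and PRPF19 are among those that rose, and the letters in capitals mark CCAAT on either strand (CCAAT or ATTGG).
SOCS1, chr16:11256155-11256454, minus strand: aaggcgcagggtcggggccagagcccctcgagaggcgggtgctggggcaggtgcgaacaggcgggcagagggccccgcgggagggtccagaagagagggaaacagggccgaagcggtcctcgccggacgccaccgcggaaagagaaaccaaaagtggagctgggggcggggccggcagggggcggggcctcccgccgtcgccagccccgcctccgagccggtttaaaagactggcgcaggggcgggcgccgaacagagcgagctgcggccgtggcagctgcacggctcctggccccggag
SOCS3, chr17:78360876-78361175, minus strand: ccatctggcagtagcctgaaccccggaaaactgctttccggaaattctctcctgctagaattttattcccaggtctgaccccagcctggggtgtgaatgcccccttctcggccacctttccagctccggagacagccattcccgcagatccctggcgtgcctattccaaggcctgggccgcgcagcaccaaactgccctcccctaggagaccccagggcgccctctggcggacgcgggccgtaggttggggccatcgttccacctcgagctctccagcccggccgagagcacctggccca
UBE2N, chr12:93441898-93442197, minus strand: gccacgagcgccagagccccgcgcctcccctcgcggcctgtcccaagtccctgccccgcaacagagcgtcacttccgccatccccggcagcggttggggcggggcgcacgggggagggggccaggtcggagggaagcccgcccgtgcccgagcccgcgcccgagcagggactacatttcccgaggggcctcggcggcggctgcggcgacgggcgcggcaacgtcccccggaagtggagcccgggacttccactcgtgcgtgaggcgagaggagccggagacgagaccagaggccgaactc
UBE2S, chr19:55407739-55408038, minus strand: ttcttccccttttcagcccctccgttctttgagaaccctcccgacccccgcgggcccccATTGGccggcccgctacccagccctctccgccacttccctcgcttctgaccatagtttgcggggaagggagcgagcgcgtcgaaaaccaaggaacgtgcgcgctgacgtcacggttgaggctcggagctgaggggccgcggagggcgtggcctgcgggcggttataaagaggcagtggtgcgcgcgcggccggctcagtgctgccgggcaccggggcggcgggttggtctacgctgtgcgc
PRPF19, chr11:60906536-60906835, minus strand: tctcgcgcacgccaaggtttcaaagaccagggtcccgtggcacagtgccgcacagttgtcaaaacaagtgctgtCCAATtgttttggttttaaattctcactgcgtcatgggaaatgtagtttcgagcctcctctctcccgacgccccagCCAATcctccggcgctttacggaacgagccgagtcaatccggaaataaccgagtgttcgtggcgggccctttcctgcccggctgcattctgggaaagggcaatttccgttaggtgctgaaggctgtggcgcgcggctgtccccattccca

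The promoter of UBE2S held 1 match, 191 bases before the start, and that of PRPF19 held 2, at 176 and 100 bases before it. No match was found in the windows of SOCS1, SOCS3 and UBE2N, which says only that these letters are not in these 300 bases. UBE2M and ANAPC1, which rose more than UBE2S and PRPF19 but are not shown, held no match either. A promoter was matched by NCBI gene identifier for 102 of the 124 members, and where a gene had several windows the one farthest upstream was used. Over these, 24 (23.5%) held at least 1 match, against 35.7% of all 27305 promoters in the table and 37.4% of the 8665 promoters of genes tested. Among members with a promoter, a match was present in 5 of 12 that were higher in shYB1 cells (HUWE1, PRPF19, UBE2D2, UBE2S and UBE2Z), in 1 of 5 that were lower (UBE4B) and in 15 of 73 that did not pass the test. These are descriptions of sequence, and binding was not measured in these files.

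The knockdown was checked first. YBX1 had 366.5, 372.8 and 377.9 FPKM with the vector and 166.7, 165.9 and 173.3 FPKM with the hairpin, a log2 fold change of −1.14 (SE 0.031, adjusted p = 1.53e-08, limma with Benjamini-Hochberg adjustment). Every fold change here is on the log2(FPKM + 0.1) scale, SE is its standard error, and "called" means an adjusted p under 0.05. FPKM totals over the table lay between 282736 and 295887, and the files give no fragment counts. The renal lineage factor PAX8 was present at means of 77.1 and 77.5 FPKM and the epithelial keratin KRT8 at 206 and 214 FPKM in vector and shYB1 cells. The epithelial adhesion gene EPCAM was low, at 1.16 and 1.12 FPKM, and VIM, a mesenchymal marker that renal carcinoma cells also express, stood at 1400 and 1437 FPKM. Among other cell types, 0 of 7 markers of leukocytes and endothelium reached 1 FPKM. Of the 8 markers on the renal list, CDH16 was lower by the same limma test in all 15 alternatives, and PAX2 and LHX1 were higher but lost their calls under median-of-ratios rescaling (adjusted p = 0.159 and 0.0632, limma).

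In shYB1 cells 14 members were higher and 6 were lower at an adjusted p under 0.05, from the limma fit over all 10439 genes tested. Over all genes tested, 18.7% were higher and 6.93% were lower, 25.7% in either direction, so that the members' share of 18.3% (20 of 109) was no larger than that of the transcriptome. The changes were small. E2 enzymes, 31 of the 109 tested members, made up 8 of the 14 that rose. The substrate receptors of cullin ligases, 12 of the 109, made up 3 of the 6 that fell. Of the 16 RING ligases tested outside the cullin and APC/C complexes, 0 passed in either direction. The classes as such carry no test. At an unadjusted p under 0.05 by limma, 37 of the 109 members passed, 3 of them RING ligases, against 39% of all genes. No member met the screening criteria of the study, a fold change of at least 2 with an unadjusted p under 0.05, which 0.22% of all genes met, and with a fold of 1.5, met by 1.14% of all genes, the 2 members that passed were SOCS1 and SOCS3.

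The balance of directions depended on the scaling of the libraries. Median-of-ratios rescaling moved the median over all genes tested from 0.055 to 0.00099 on the log2 scale, a shift of −0.054, and that of the tested members from 0.066 to 0.012. Under it 10 members were higher and 9 were lower, with 11.4% and 12% of all genes. All 10 and 6 of the 9 were also called on the FPKM as deposited, and the 3 further lower calls were UBE2H, the E2 of the CTLH ligase, WWP1, a HECT ligase, and PML, the RING protein of nuclear bodies. The 4 higher calls that did not pass under this scaling were UBE2J1, ELOC, UBE2Z and SAE1.

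**Figure D1:**
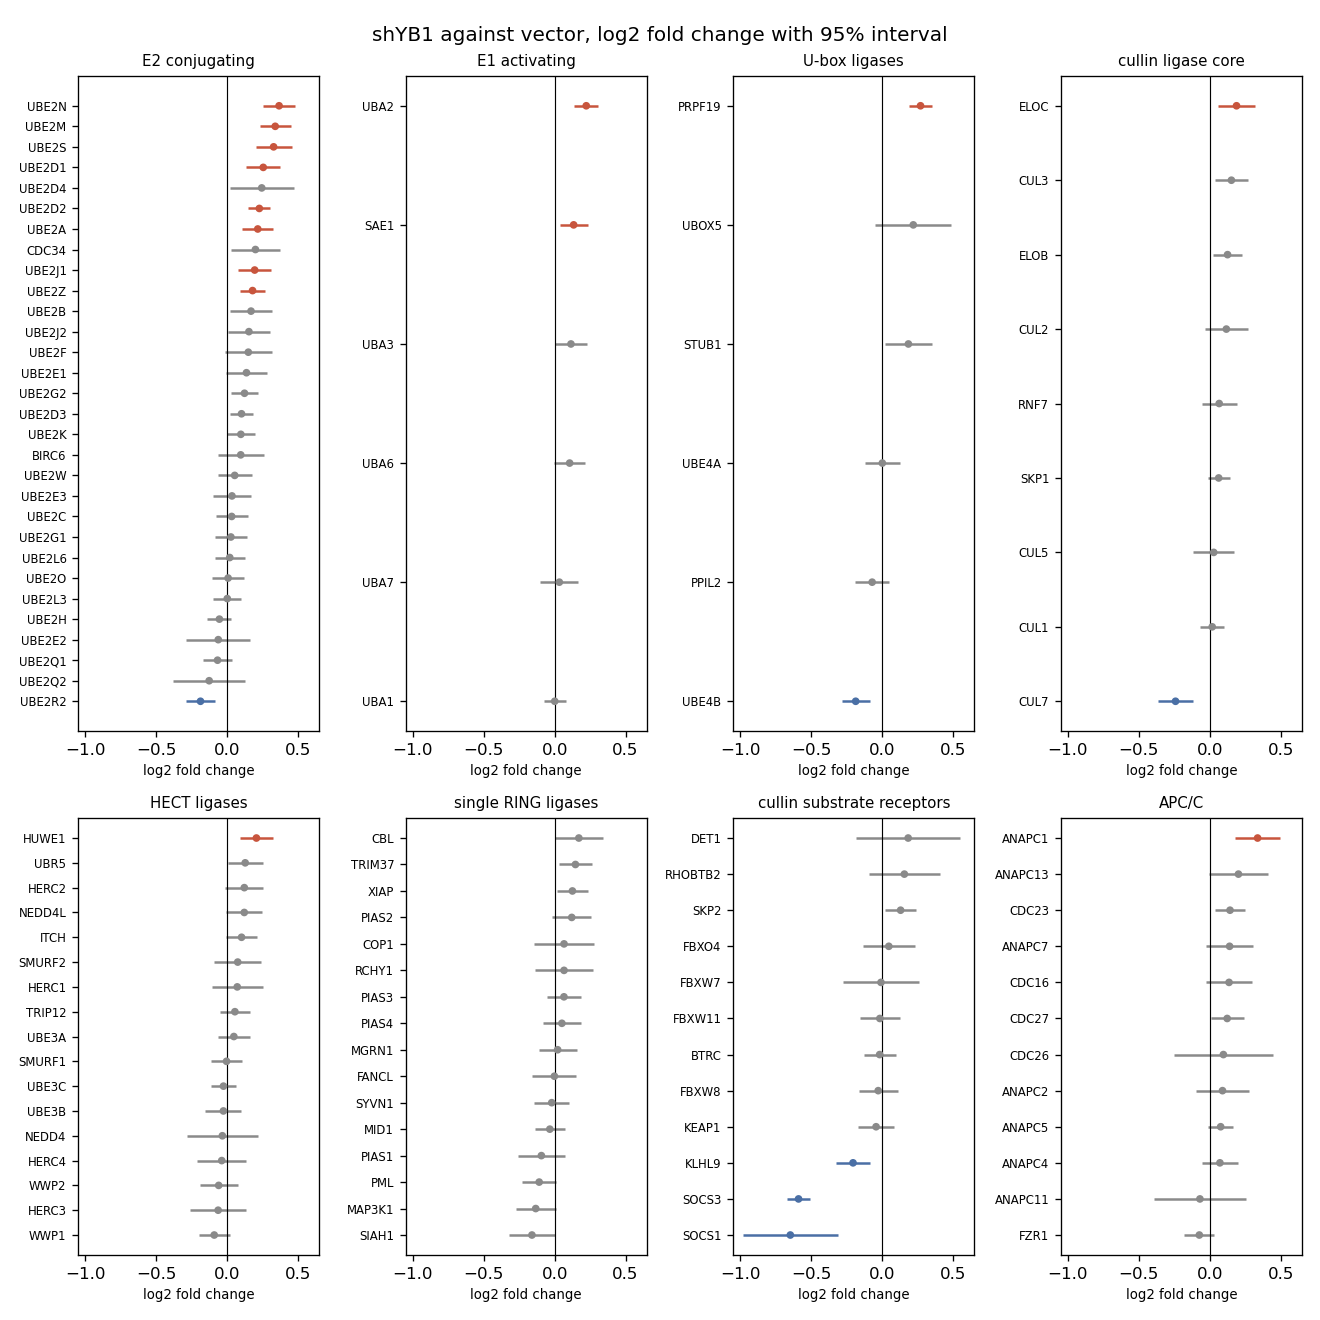
Log2 fold change of shYB1 against vector (x axis, log2(FPKM + 0.1) scale) of the tested members reported here, one point per gene with its 95% interval and one panel per role, in red for called higher, blue for called lower and grey for not called. All points other than SOCS1 and SOCS3 lie between −0.24 and 0.37, and SOCS1 (−0.65) and SOCS3 (−0.59) stand apart from the other cullin substrate receptors.

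SOCS3 fell most clearly. SOCS1 and SOCS3 are suppressors of cytokine signaling that bind cytokine receptors or JAK kinases and, through their SOCS box, elongins B and C and CUL5. SOCS3 stood at 65.9, 66.7 and 67.0 FPKM in vector cells and at 42.9, 43.6 and 46.1 FPKM in shYB1 cells. The groups were far apart and each was narrow, so that SOCS3 fell by 33.6%, with a log2 fold change of −0.59 (SE 0.036, adjusted p = 4.36e-06, limma). SOCS1, a less abundant mRNA, stood at 4.91, 4.85 and 6.09 FPKM in vector cells and at 3.13, 2.77 and 4.21 FPKM in shYB1 cells. The groups did not overlap, but 1 library in each group stood well above its other two. The log2 fold change was −0.65 with an SE of 0.15, against 0.036 for SOCS3 (adjusted p = 0.0131, limma). Without shYB1 replicate 1 the adjusted p of SOCS1 was 0.0539. The within-library log2 ratio of SOCS1 to SOCS3 averaged −3.64 ± 0.17 in vector and −3.69 ± 0.26 in shYB1 cells (SD, n = 3), a difference of −0.058 with overlapping groups (two-sided exact permutation test, p = 0.9). Of the 6 tested members also annotated to JAK-STAT signaling, these 2 were lower, beside 6.93% of all genes tested. The other 4, the SUMO ligases PIAS1 to PIAS4, did not pass the test. The 2 lower genes are those described above, so the count is no result about the pathway.

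The other lower members moved less. CUL7, the cullin that assembles with the receptor FBXW8, stood at 5.20, 5.48 and 5.42 FPKM in vector and 4.50, 4.63 and 4.44 FPKM in shYB1 cells, a log2 fold change of −0.24 (SE 0.057, adjusted p = 0.0118, limma). Its partner FBXW8 had means of 3.99 and 3.91 FPKM and did not pass (95% interval of the log2 fold change −0.17 to 0.11). KLHL9, a BTB receptor of CUL3 ligases that acts in mitosis, stood between 9.71 and 10.5 FPKM in vector cells and at 8.99, 8.85 and 8.28 FPKM in shYB1 cells, with a log2 fold change of −0.21 (adjusted p = 0.0180, limma). All its shYB1 libraries lay below all its vector libraries. Its paralogue KLHL13 was near 0, with a mean of 0.0122 FPKM.

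UBE4B, a U-box factor that extends ubiquitin chains, stood at 11.6, 12.1 and 11.7 FPKM in vector and 10.5, 10.2 and 10.4 FPKM in shYB1 cells, a log2 fold change of −0.19 (adjusted p = 0.0125, limma). UBE2R2, an E2 that works with cullin ligases, stood at 24.3, 22.7 and 23.4 FPKM against 20.8, 19.6 and 21.4 FPKM, also with a log2 fold change of −0.19 (adjusted p = 0.0146, limma). In both genes the groups did not overlap. The call of KLHL9 was lost without vector replicate 2 or shYB1 replicate 3, and that of UBE2R2 without vector replicate 1 or shYB1 replicate 2.

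**Figure D2:**
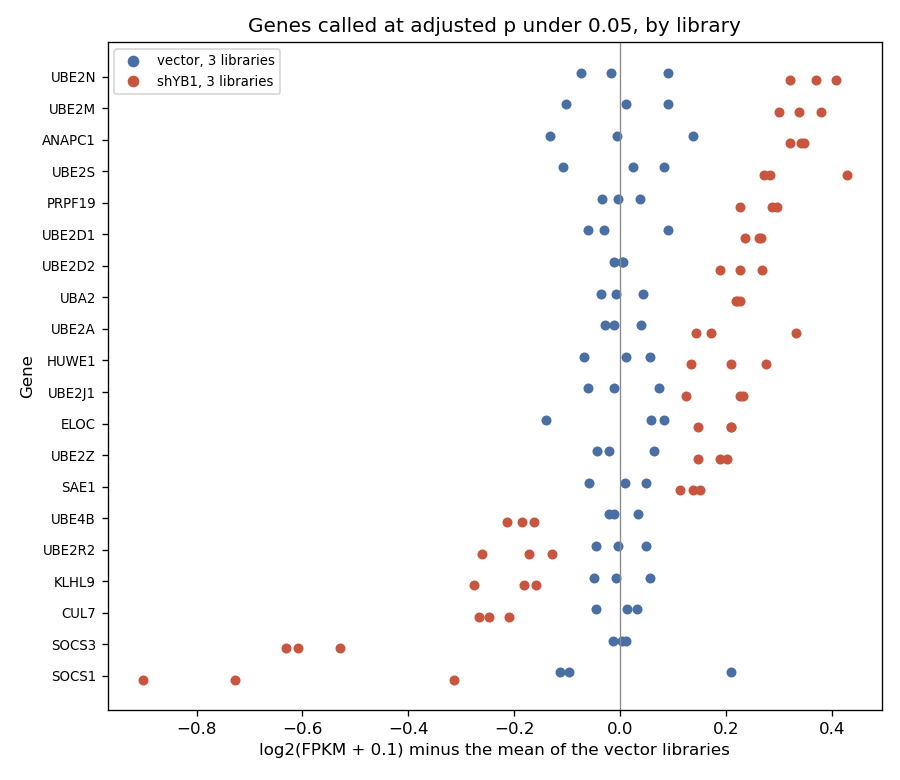
Log2(FPKM + 0.1) of the 20 called members in each library minus the gene's mean over the vector libraries (x axis), one point per library, vector in blue and shYB1 in red. In each of the 20 genes all 3 shYB1 libraries lie on one side of all 3 vector libraries, and the libraries of SOCS1 are the most spread.

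Among the E2 enzymes, 8 of 31 tested members were higher and 1, UBE2R2, was lower, and under median-of-ratios rescaling 6 were higher and 2 lower. The shares over all genes tested were 18.7% and 6.93% as deposited and 11.4% and 12% after rescaling, and the class as such carries no test. UBE2N, the E2 that builds chains used more in signaling than in degradation, stood at 17.2, 15.3 and 16.0 FPKM in vector and at 20.9, 21.5 and 20.2 FPKM in shYB1 cells. The lowest shYB1 library lay above the highest vector library, and the log2 fold change of 0.37 (SE 0.050, adjusted p = 0.000687, limma) was the largest rise among the tested members. UBE2N shares 39.5% of its exonic bases with NUDT4 on the other strand, and no source used here says whether the counting used strand, so reads of the pair cannot be told apart. NUDT4 itself had means of 7.65 and 7.27 FPKM and a log2 fold change of −0.073 (adjusted p = 0.307, limma).

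UBE2M, which transfers NEDD8 to cullins, stood at 40.7, 37.6 and 43.0 FPKM in vector and at 52.5, 49.7 and 51.0 FPKM in shYB1 cells, with a log2 fold change of 0.34 (SE 0.049, adjusted p = 0.000917, limma). The 3 NEDD8 enzymes were all tested, and UBE2M was the only one to pass. UBA3, the catalytic subunit of the NEDD8 E1, had means of 20.8 ± 0.881 and 22.6 ± 1.25 FPKM (SD, n = 3) with a 95% interval of the log2 fold change from 0.0028 to 0.23, and UBE2F, the second NEDD8 E2, had means of 7.72 ± 0.746 and 8.56 ± 0.563 FPKM with an interval from −0.017 to 0.32. Among the cullins that are members, CUL1, CUL2, CUL3 and CUL5 did not pass and CUL7 fell. CUL3 missed the threshold narrowly, with a log2 fold change of 0.15 (adjusted p = 0.0522, limma) and groups that did not overlap.

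UBE2S, the E2 that elongates chains on APC/C substrates, was the most abundant member, with a mean of 71.7 FPKM over all libraries. It stood at 58.9, 64.6 and 67.3 FPKM in vector and at 76.7, 77.3 and 85.5 FPKM in shYB1 cells, a log2 fold change of 0.33 (SE 0.057, adjusted p = 0.00309, limma). ANAPC1, the scaffold of the APC/C, stood at 4.73, 5.23 and 4.32 FPKM against 6.07, 6.04 and 5.95 FPKM, a log2 fold change of 0.34 (SE 0.072, adjusted p = 0.00726, limma), and was the 1 of 12 tested APC/C genes to pass. UBE2C, the E2 that starts the chains, did not pass, with means of 32.7 ± 2.28 and 33.4 ± 0.994 FPKM (SD, n = 3) and an interval from −0.081 to 0.15. ANAPC5, the most abundant APC/C subunit at a mean of 23.6 FPKM, had a log2 fold change of 0.077 (adjusted p = 0.181, limma). The values of ANAPC1 and UBE2S carry an uncertainty, because 31.0% and 15.9% of the 50-base words of their transcripts also occur in other annotated genes, for UBE2S mainly in its pseudogene UBE2SP1.

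The UBE2D family holds general E2 enzymes that serve many RING ligases. UBE2D1 stood at 7.86, 8.56 and 7.70 FPKM in vector and 9.68, 9.47 and 9.65 FPKM in shYB1 cells, with a log2 fold change of 0.25 (adjusted p = 0.00706, limma). UBE2D2 stood at 33.4, 33.4 and 33.1 FPKM against 37.9, 40.1 and 39.0 FPKM, with a log2 fold change of 0.23 (adjusted p = 0.00149, limma). The other two family members did not pass, UBE2D3 with a log2 fold change of 0.10 and UBE2D4 with 0.24, where the larger value went with the larger standard error (0.10 against 0.037). UBE2A, an E2 of histone ubiquitination, stood at 39.9, 41.8 and 40.4 FPKM against 45.0, 45.9 and 51.2 FPKM, a log2 fold change of 0.22 (adjusted p = 0.0103, limma), and overlaps NKRF on the other strand over 18.1% of its exonic bases. UBE2J1, an E2 of the endoplasmic reticulum membrane, and UBE2Z, an E2 that is loaded by UBA6, had log2 fold changes of 0.19 and 0.18 (adjusted p = 0.0213 and 0.00884, limma). UBE2J1 was called in 9 of 15 alternatives and lost its call without vector replicate 1 or 2 or shYB1 replicate 2 or 3, and under median-of-ratios and quantile scaling, and UBE2Z lost its call under median-of-ratios rescaling. Of the 13 tested members that the table also assigns to protein processing in the endoplasmic reticulum, 3 were higher (UBE2D1, UBE2D2 and UBE2J1) and 1 was lower (UBE4B), which is near the 18.7% and 6.93% of all genes.

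Of the 6 activating enzymes 2 were higher, beside 18.7% of all genes tested (1 under median-of-ratios rescaling, beside 11.4%). These 2 are the subunits of the SUMO E1. UBA2, its catalytic subunit, stood at 19.9, 21.1 and 20.3 FPKM in vector and at 23.8, 23.9 and 23.8 FPKM in shYB1 cells, with a log2 fold change of 0.22 (SE 0.038, adjusted p = 0.00252, limma). SAE1, the other subunit, stood at 14.9, 14.2 and 15.3 FPKM against 16.3, 16.0 and 16.5 FPKM. Its log2 fold change of 0.13 passed narrowly (adjusted p = 0.0478, limma) and was called in 5 of 15 alternatives. The SUMO ligases PIAS1 to PIAS4 did not pass, with log2 fold changes from −0.094 to 0.12. UBA1, the main ubiquitin E1 and the most abundant E1, had means of 35.3 ± 0.613 and 35.3 ± 0.818 FPKM (SD, n = 3) and a log2 fold change of 0.00054 (95% interval −0.079 to 0.080).

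Outside the cullin receptors, 1 of 17 HECT ligases, 2 of 6 U-box ligases and 2 of 9 cullin core genes passed. In RING ligases it was 0 of 16 and in the APC/C 1 of 12, beside 25.7% of all genes tested. HUWE1, a large HECT ligase of many nuclear substrates, was the 1 of 17 HECT ligases to pass, at 14.0, 15.3 and 14.8 FPKM in vector and 17.8, 17.0 and 16.1 FPKM in shYB1 cells (log2 fold change 0.21, adjusted p = 0.0153, limma). Its call was lost without vector replicate 1 or shYB1 replicate 1 and under quantile scaling. UBE3C, the most abundant HECT ligase, which acts at the proteasome, had means of 31.6 and 31.0 FPKM and an interval from −0.11 to 0.063. PRPF19, a U-box ligase that is also a core factor of the spliceosome, stood at 28.6, 28.0 and 29.4 FPKM against 33.6, 35.0 and 35.3 FPKM, a log2 fold change of 0.27 (SE 0.038, adjusted p = 0.000811, limma). STUB1, the U-box ligase that works with chaperones and the most abundant of its class, had means of 31.9 ± 2.40 and 36.3 ± 3.51 FPKM and overlapping groups (log2 fold change 0.18, adjusted p = 0.0978, limma), and 42.4% of its exonic bases lie opposite JMJD8. ELOC, elongin C, was the 1 of 9 cullin core genes to rise, at 21.1, 24.2 and 24.7 FPKM against 25.8, 26.9 and 26.9 FPKM (log2 fold change 0.19, adjusted p = 0.0363, limma), with a call in 7 of 15 alternatives. Its partner ELOB, the most abundant core gene at a mean of 62.7 FPKM, had a log2 fold change of 0.13 (adjusted p = 0.0762, limma).

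Of the 25 RING ligases 9 were under 1 FPKM, more than in any other class of members. PIAS3 was the most abundant, with means of 10.6 and 11.1 FPKM, and did not pass (adjusted p = 0.417, limma). CBL, a RING ligase known to act on EphA2 and other receptor tyrosine kinases, stood at 4.97, 5.45 and 5.30 FPKM in vector and at 6.47, 5.97 and 5.33 FPKM in shYB1 cells. The groups overlapped, and the log2 fold change was 0.17 (95% interval 0.0033 to 0.34, adjusted p = 0.122, limma). Its relatives CBLB and CBLC had means of 0.948 and 0.0260 FPKM over all libraries and were not tested. The remaining members that were not tested include AIRE, BIRC8, UBE2QL1 and UBE2U, listed at 0 in all 6 libraries, TRAF6 at 0.814 FPKM, ANAPC10 at 0.666 FPKM, RHOBTB1 at 0.488 FPKM and FBXO2 at 0.251 FPKM. BIRC7, KLHL13, NHLRC1 and TRIM32 had means under 0.1 FPKM.

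**Figure D3:**
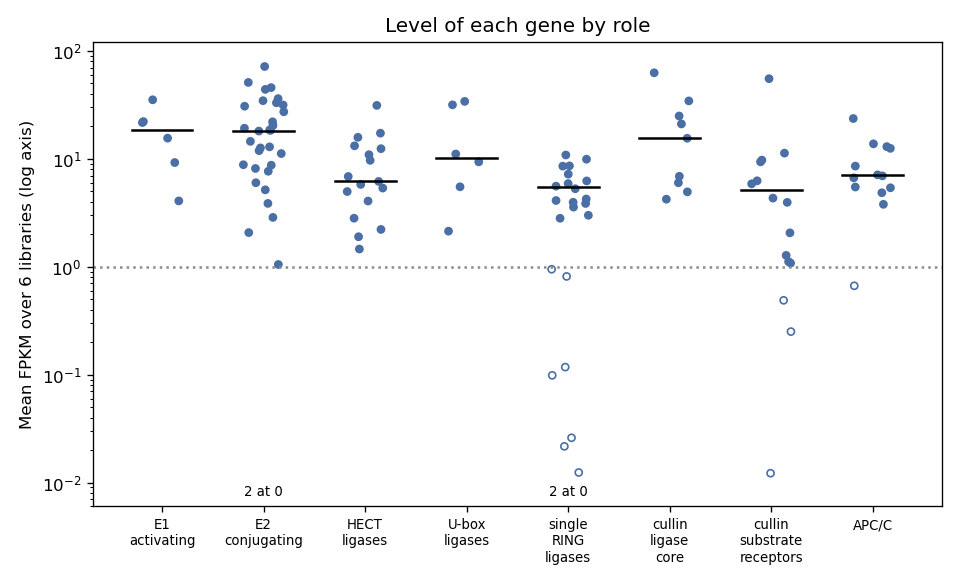
Mean FPKM over the 6 libraries (log axis) of the 124 members by role, one point per gene, open where not tested, with a bar at the median of the tested genes, a dotted line at the filter of 1 FPKM and the number listed at 0 under each class. The E1 and E2 classes have the highest medians, 18.6 and 18.1 FPKM, and RING ligases hold 9 of the 15 members under the line.

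In the summed FPKM of a class the abundant genes weigh most. The 33 E2 genes summed to 602, 608 and 618 FPKM in the vector libraries and to 661, 669 and 682 FPKM in the shYB1 libraries, so that each shYB1 library lay above each vector library. The E1 genes summed to 103, 105 and 105 FPKM against 111, 113 and 111 FPKM. The cullin substrate receptors went the other way, from 123, 125 and 127 FPKM to 98.0, 99.9 and 102 FPKM, and SOCS3 alone held 42.9 to 67.0 FPKM of those sums. RING ligases overlapped, at 93.1 to 97.3 FPKM in vector and 95.1 to 97.4 FPKM in shYB1 cells. These sums carry no test and use the FPKM as deposited, on which 30.1% of all genes tested lay wholly above and 12.5% wholly below. The median log2 fold change of the tested E2 genes was 0.10 as deposited and 0.046 after median-of-ratios rescaling. Over all genes tested it was 0.055 and 0.00099. Less RNA per cell and fewer cells with an mRNA cannot be told apart in bulk libraries.

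The median log2 fold change of the 109 tested members was 0.066, with 76 positive and 33 negative, beside a median of 0.055 over all genes tested. The shYB1 libraries lay wholly above the vector libraries in 30 members and wholly below in 11, against 30.1% and 12.5% of all genes. In both directions 41 members (37.6%) did not overlap, against 42.6% of all genes. By these measures the members as a whole stood close to all genes tested. Members were somewhat more abundant than other genes (median of mean FPKM 8.61 against 7.30) and had a slightly smaller standard error (median 0.056 against 0.062), and the median size of the called log2 fold changes was 0.22 in members and 0.25 in all genes.

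**Figure D4:**
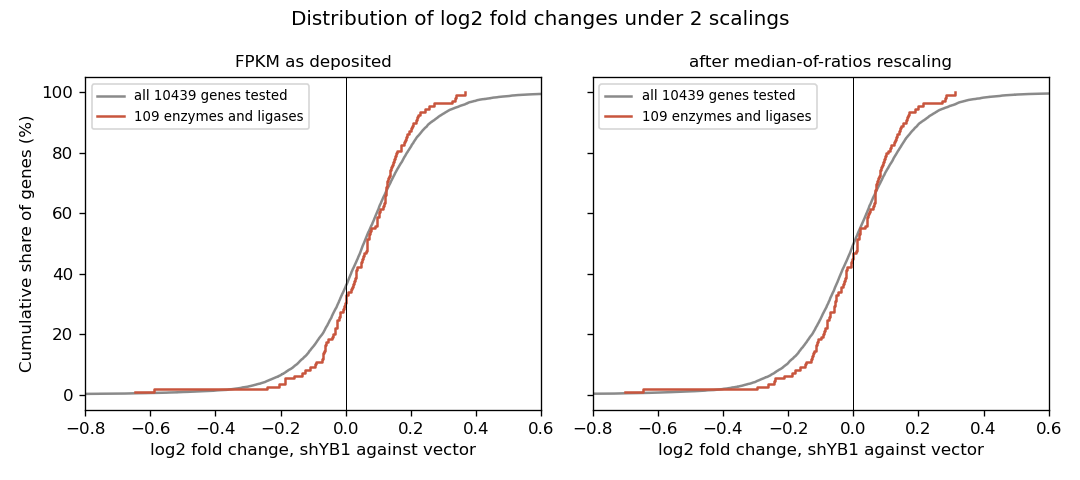
Cumulative share of genes (%, y axis) by log2 fold change of shYB1 against vector (x axis), for the 109 tested members (red) and all 10439 genes tested (grey), with FPKM as deposited on the left and after median-of-ratios rescaling on the right. The medians are 0.066 and 0.055 on the left and 0.012 and 0.00099 on the right.

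For the 89 tested members that did not pass, the 95% intervals were read gene by gene. They reflect the spread between these libraries, which may be technical, and hold for the FPKM as deposited only. All 89 intervals lay within a fold change of 1.5 in either direction and 81 within 1.3, with bounds from −0.39 to 0.55 on the log2 scale.

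Genes on which the cascade depends were read from lists of their own. Of 10 genes that encode the modifiers, 9 were tested and 3 were higher, ISG15 and SUMO3 among them. ISG15, an interferon-inducible modifier, had means of 16.7 ± 0.589 and 22.0 ± 1.18 FPKM (SD, n = 3) and a log2 fold change of 0.39 (adjusted p = 0.000406, limma). Its E1 and E2, UBA7 and UBE2L6, did not pass, with intervals of −0.10 to 0.17 and −0.087 to 0.12. SUMO3 had a log2 fold change of 0.16 (adjusted p = 0.0370, limma) and lost its call under median-of-ratios rescaling.

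Among 16 regulators of cullin ligases, the COP9 signalosome, CAND1 and the DCN1-like proteins, 15 were tested and 3 were higher. COPS3 had a log2 fold change of 0.21, COPS5, the subunit that removes NEDD8 from cullins, 0.16, and DCUN1D2, which aids the transfer of NEDD8, 0.25 (adjusted p = 0.00460, 0.0227 and 0.0323, limma). Under median-of-ratios rescaling COPS3 alone among the 15 passed. The 18.7% of all genes that were higher is the background for both lists.

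Paralogues with the same role can be compared within a library, where the scaling cancels. Of 22 pairs, 19 had both genes tested, and in 6 of them the within-library log2 ratios of the groups did not overlap. Among single genes the libraries of the groups did not overlap in 42.6%, so this number is no result about the pairs, which are described one by one. Each of these 6 had p = 0.1 in a two-sided exact permutation test, the smallest p that 3 libraries against 3 allow, and so none can reach 0.05, with or without adjustment over the pairs. CDC34 and UBE2R2, the E2 enzymes of cullin ligases, shifted most. The log2 ratio of CDC34 to UBE2R2 was −0.27, −0.36 and −0.31 in vector and −0.11, 0.20 and 0.14 in shYB1 cells, a difference of 0.39. CDC34 itself did not pass (log2 fold change 0.20, adjusted p = 0.0881, limma).

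The ratio of UBE4A to UBE4B rose by 0.19, from −0.33 ± 0.084 to −0.14 ± 0.10 (SD, n = 3), while UBE4A had means of 9.37 and 9.38 FPKM. The ratio of UBE2D2 to UBE2D3 rose by 0.13. PIAS1 to PIAS2 fell by 0.21 and NEDD4 to NEDD4L fell by 0.15, the latter with a value of −1.90 in shYB1 replicate 3 beside −1.52 and −1.51 in the other shYB1 libraries. HERC1 to HERC2 fell by 0.050, with a gap of 0.0029 between the groups, and neither gene of these last 3 pairs passed the limma test.

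**Figure D5:**
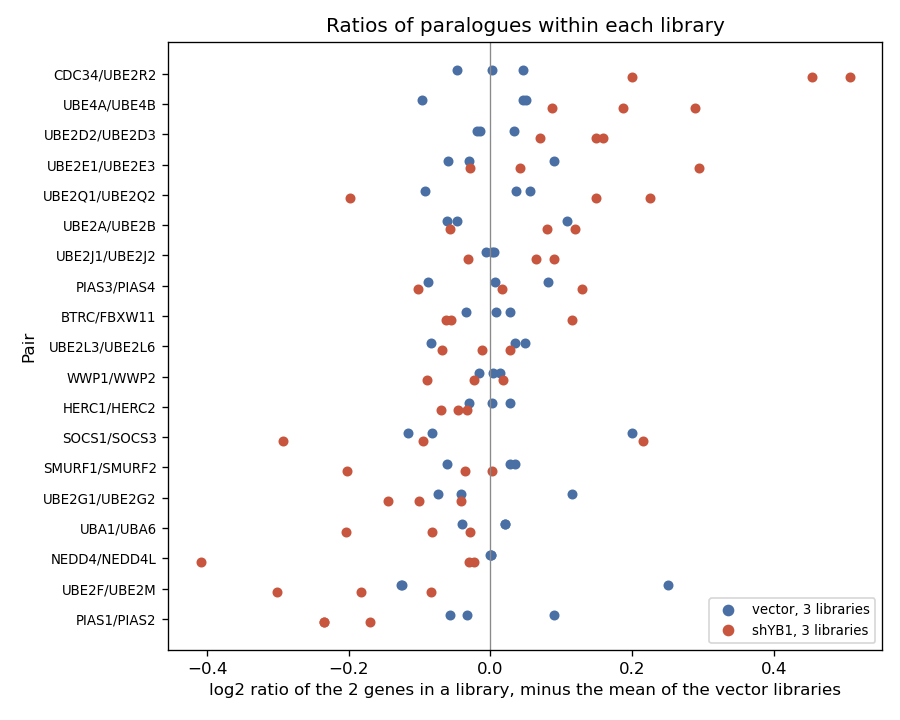
Within-library log2 ratio of each paralogue pair with both genes tested, minus the mean of the vector libraries (x axis), one point per library, vector in blue and shYB1 in red. The ratio of CDC34 to UBE2R2 shows the widest shift (0.39), and 6 of the 19 pairs do not overlap between groups.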

How the data were processed

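Total RNA behind 3 shYB1 and 3 vector libraries of 786-O cells was extracted with Trizol. The authors deposited FPKM per gene with KEGG annotation. The submitters' processing notes name Trimmomatic, HISAT2, Cufflinks, HTSeq, DESeq and GRCh38, with no versions, and strand settings are not given in the sources used here. All per-library columns were used, and 0 were left out. The depth is unknown, since the table holds no counts. The spacing of values under 0.08 FPKM put the relative depth between 0.958 and 1.10.

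From the deposited FPKM, log2(FPKM + 0.1) of the 10439 genes that averaged 1 FPKM or more was fitted with limma 3.58.1 in R 4.3.3 (trend and robust prior, two-sided, Benjamini-Hochberg over all genes tested, threshold 0.05). In simulated data 200 genes among 10439 were changed. The step recovered 83 of 100 at a log2 change of 0.5 and 93 of 100 at 1, with 7 false calls. Recovery at smaller sizes, or with a larger share of genes changed, was not tested. Of the 20 called members, 18 had a log2 fold change under 0.4 in size, and their median size was 0.22. Sequence sharing was taken from GENCODE transcripts and promoters from RefSeq. Python 3.11.15 with pandas 2.3.3 and SciPy 1.17.1 served for the rest.

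The members and gene lists were chosen with earlier results of these data known, so they give no independent support. Named genes are the 10 largest called changes in each direction, the most abundant member of each role, CBL, and the genes of paralogue pairs that did not overlap. Genes named beyond this rule, such as UBE2J1 and UBE2Z, were chosen after their values were seen. Results for some genes are not reported here. Alternatives tried were a pseudocount of 1 or 0.01, no filter or a minimum mean of 5 FPKM, median-of-ratios, common-total or quantile scaling, a prior without trend, the replicate number as a block, the omission of each library, and a fold of 1.5.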

Additional observations from a re-analysis of the deposited data

How the results depend on the processing

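The counts of 14 higher and 6 lower members stayed within 1.5 times under every alternative, with 10 to 18 higher and 5 to 6 lower when single libraries were left out. The median log2 fold change of 0.066 moved to 0.093 for members averaging 5 FPKM or more and to 0.012 under both median-of-ratios and quantile scaling, and lay between 0.059 and 0.080 without single libraries. The screening criteria gave 0 members, and 2 at a fold of 1.5. Of the 20 called members, 12 kept their call in each alternative they were tested in (9 higher, 3 lower).

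With the replicate number as a block, 16 members were higher and 6 lower, beside 2074 and 760 of all 10439 genes tested. ANAPC13 (adjusted p = 0.0386, limma) and STUB1 (0.00788) were added, and no call among the 20 was lost. Same-numbered libraries correlated at −0.169, −0.059 and −0.0082 in their deviations from the group means, so no positive correlation was seen. Whether they also shared a preparation step is not stated and was not tested.

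Over the named genes and alternatives, 480 values kept direction and side of the threshold, 33 lost significance, 7 gained it and 14 reversed. The reversals were in 3 genes that were near zero and not called. UBE4A (0.00079) became −0.054 under median-of-ratios, −0.0034 under common-total and −0.057 under quantile scaling, and ranged from −0.036 to 0.039 without single libraries. UBA1 (0.00054) became −0.055, −0.0037 and −0.039 under the same scalings and ranged from −0.011 to 0.020 without single libraries. NEDD4 (−0.033) ranged from −0.13 to 0.095 without single libraries. The cause was not tested. FPKM without counts give no detection limit, and with 3 libraries a group the median SE of a member was 0.056 on the log2 scale.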
